A study of Homo sapiens with 10 samples.

Results

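The 10 genes described here carry out the synthesis, breakdown and regulation of the polyamines, and were chosen by name: ODC1, AMD1, SRM, SMS, SAT1, SMOX, PAOX, OAZ1, OAZ2 and AZIN1. All 10 were found among the 57353 gene symbols of the count table, and all 10 passed the expression filter that left 17230 genes for testing. They were measured by RNA sequencing in 10 samples of LNCaP-C4-2, a castration-resistant derivative of the LNCaP prostate cancer line. The study changed the level of CPT1A, the outer mitochondrial membrane enzyme that makes acyl-carnitines so that fatty acids can enter mitochondria. Cells carrying a lentiviral shRNA against CPT1A (KD, 3 samples) were set against cells with a scrambled, non-targeting shRNA (NT, 2 samples), and cells with a lentiviral CPT1A cDNA (OE, 3 samples) against cells with an empty virus (EV, 2 samples). Puromycin was used to select the shRNA lines and blasticidin the cDNA lines. All cells were taken at 80% confluency. Each kind of cell was 1 line, made with 1 shRNA clone or 1 cDNA clone, so the spread between its samples was the spread within a line. The comparison of OE with EV is called the OE arm and that of KD with NT the KD arm. A difference between lines that predates or accompanies the transduction cannot be told apart from an effect of CPT1A.

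Polyamines are small positively charged molecules that bind nucleic acids and are needed for growth. ODC1 makes putrescine from ornithine, AMD1 turns S-adenosylmethionine into the aminopropyl donor, and the synthases SRM and SMS use that donor to build spermidine from putrescine and spermine from spermidine. SAT1 acetylates spermidine and spermine, PAOX oxidizes the acetylated forms back towards putrescine, and SMOX oxidizes spermine directly. The antizymes OAZ1 and OAZ2 bind ODC1 and hand it to the proteasome, and AZIN1, a catalytically inactive relative of ODC1, binds the antizymes in its place. The prostate is known for secreting very large amounts of spermine. Much of the control of ODC1, AMD1, SAT1 and the antizymes acts on translation or protein stability, so the mRNA levels measured here are not protein or polyamine levels.

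The sequences upstream of the synthesis genes are shown first, since ODC1 and SRM had closely parallel levels over the libraries (Pearson r 0.97) while SMS and AMD1 did not follow them. OAZ2 also ran parallel to SRM (r 0.90) and ODC1 (r 0.85). RefSeq windows of 250 bases before an annotated start (GRCh38.p14) were matched for 7 of the 10 genes, in 10 windows. Below, 250 bases are given for SRM (chr1:11060019-11060268, minus strand), SMS (chrX:21940459-21940708, plus strand) and AMD1 (chr6:110874535-110874784, plus strand). For ODC1 the 108 bases are the first part of intron 1 of its canonical transcript and lie directly before a second annotated start (chr2:10448013-10448120, minus strand). All are written 5′ to 3′, and capitals mark the E-box CACGTG, the recognition sequence of MYC and MAX.
SRM: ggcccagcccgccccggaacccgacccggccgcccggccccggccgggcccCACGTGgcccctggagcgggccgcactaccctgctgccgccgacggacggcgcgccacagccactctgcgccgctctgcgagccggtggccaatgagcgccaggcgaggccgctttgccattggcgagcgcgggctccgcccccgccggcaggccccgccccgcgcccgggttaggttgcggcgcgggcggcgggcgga
ODC1: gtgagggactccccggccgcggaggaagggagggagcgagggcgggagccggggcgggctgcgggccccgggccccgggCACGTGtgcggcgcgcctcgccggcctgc
SMS: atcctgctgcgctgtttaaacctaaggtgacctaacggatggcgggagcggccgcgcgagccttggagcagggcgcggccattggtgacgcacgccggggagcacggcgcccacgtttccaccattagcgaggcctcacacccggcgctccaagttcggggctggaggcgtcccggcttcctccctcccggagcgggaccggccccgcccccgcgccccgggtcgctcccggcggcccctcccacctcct
AMD1: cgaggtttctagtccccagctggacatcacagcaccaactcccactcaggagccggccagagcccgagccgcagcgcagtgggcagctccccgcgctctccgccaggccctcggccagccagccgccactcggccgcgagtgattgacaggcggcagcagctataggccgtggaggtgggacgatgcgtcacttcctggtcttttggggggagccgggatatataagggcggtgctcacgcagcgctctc
The E-box lies 199 bases before the start of SRM and 29 bases before the second start of ODC1. The 50 bases after that second start, not shown, hold 1 more CACGTG. The E-box was not matched in the window of OAZ2, nor in those of SMS, AMD1, SAT1 or OAZ1, nor before the main start of ODC1. Of the 35116 RefSeq windows of the same length, 6.3% held CACGTG. The GC box GGGCGG, searched on both strands, was in 42.6% of all windows and occurred 6 times in that of SRM, 4 times before each start of ODC1 and once each in those of SMS and AMD1 shown here. The 108 bases shown for ODC1 hold only the matches at -69 and -57 from its second start. The letters TATAAA and TGATGNAA (a composite ATF4 and C/EBP site), which are in 10.7% and 3.1% of all windows, were matched in no window of these genes. No match of one motif overlapped a match of another in the windows of SRM and ODC1, and a match describes these letters only.

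Library depth was 23555205 to 28615770 counts, and levels are given as CPM, counts relative to the TMM-scaled library size, of which 3 counts make 0.09951 to 0.1358. CPT1A was lower in KD than in NT (3.11-fold) and higher in OE than in EV (2.74-fold), in the direction of the labels. The 10 prostate luminal markers (KLK3 among them) were present in every line, with summed levels of 7223 to 7489 CPM (NT), 9809 to 10640 (KD), 9659 to 10060 (EV) and 12900 to 13320 (OE). The 10 markers of immune, endothelial, fibroblast and basal cells summed to 14.86 to 23.67 CPM, with 4 of them at 0 in every library. Replicates of a line differed most where KD replicate 2 was compared with the others (chi-square per degree of freedom of 7.14 and 7.29, against 2.35 between the other KD libraries), followed by OE replicate 2 (4.05 and 4.69, against 2.23). The limit for a call was an adjusted p of 0.0001 in edgeR's quasi-likelihood test, with Benjamini-Hochberg adjustment over all tested genes, and every adjusted p below is from that test. Fold changes moved with GC content. The quintile of genes with the lowest GC content had a median log2 change of -0.34 in the OE arm and the highest quintile one of 0.27, and these medians were -0.20 and 0.15 in the KD arm. The polyamine genes span 38.1% (AMD1) to 63.6% (SRM) GC, so values from a fit with a GC content offset are given where they change a call, a direction or a size.

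In the KD arm, 4 of the 10 genes rose (SMS, SRM, ODC1 and AMD1, the complete route from ornithine to spermine) and 2 fell (SMOX and SAT1, the enzymes that act directly on spermine and spermidine), where the background of all tested genes was 16.4% higher and 12.8% lower. The OE arm had 2 that rose (OAZ1 and SRM) and 2 that fell (SMS and AMD1), where the background was 11.6% higher and 10.3% lower. The 6 genes called in the KD arm became 3 without NT replicate 1 (AMD1, SAT1 and SMOX lost) and 4 without NT replicate 2 (AMD1 and SAT1 lost). The 4 called in the OE arm became 6 without KD replicate 2 (ODC1 and OAZ2 gained) and 3 without EV replicate 2 (SRM lost). In bulk RNA, fewer cells that express a gene and less RNA per cell cannot be told apart. Over the 10 genes the median log2 change was 0.27 (KD arm) and 0.17 (OE arm), against -0.02 over all tested genes in each. The values of the lines compared did not overlap for any of the 10 genes in either arm, which also held for 70.6% of all tested genes in the KD arm and for 68.9% in the OE arm. No test of the list as a whole was made.

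**Figure D1:**
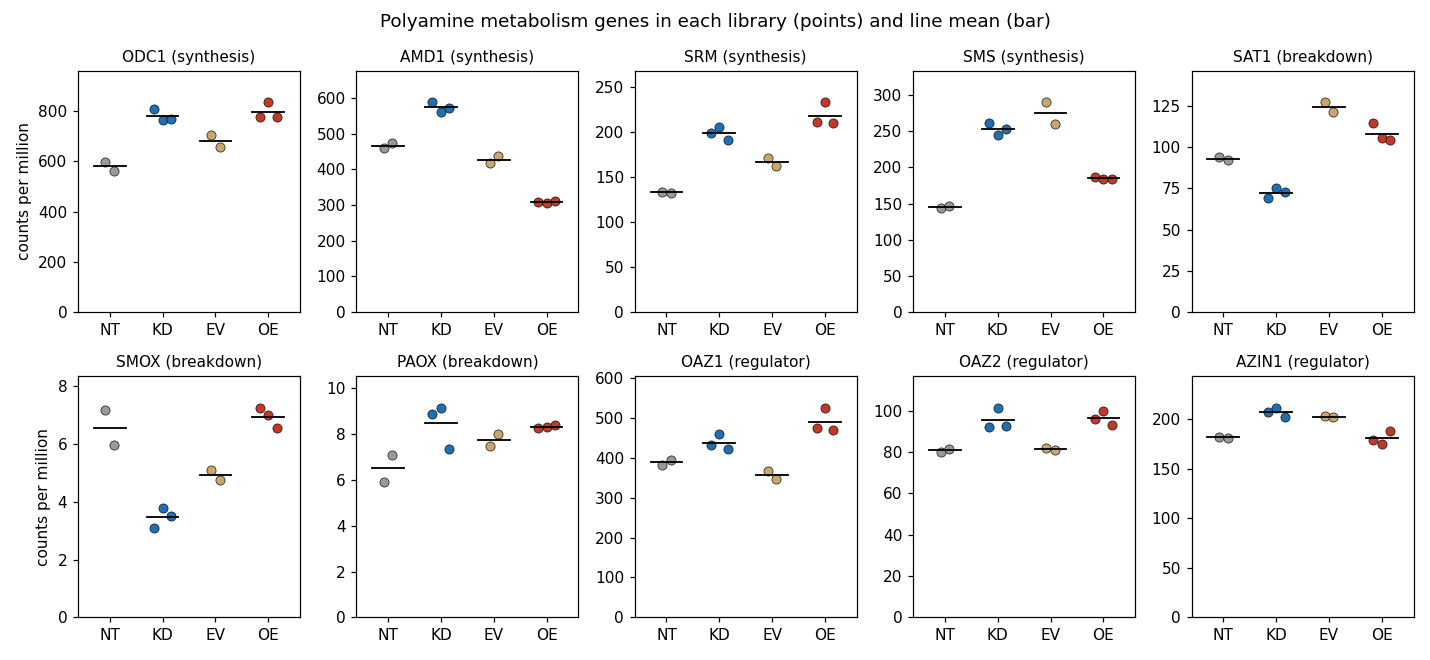
Levels of the 10 polyamine genes (y axes from 0, TMM-scaled CPM) in the NT, KD, EV and OE libraries, where points are libraries and bars are line means. ODC1 and SRM were above their control in both KD and OE, AMD1 and SMS were above it in KD and below it in OE, and SMOX was below it in KD and above it in OE.

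ODC1 (chr2:10439968-10448327, minus strand), the entry enzyme, stood at 598 and 561 CPM in the NT libraries and at 810, 763 and 767 in the KD libraries. It was at 703 and 658 CPM in EV and at 776, 835 and 778 in OE. All KD libraries lay above all NT libraries and all OE libraries above both EV libraries, and KD and OE overlapped each other. ODC1 rose in the KD arm by a log2 fold change of 0.43 ± 0.05 (SE, adjusted p = 1.07e-07). In the OE arm the log2 fold change was 0.23 ± 0.05 (adjusted p = 0.000543), which did not pass the limit, although it did with the GC content offset (0.23, adjusted p = 8.01e-05). The change differed between arms by -0.20 ± 0.07, which was not called (adjusted p = 0.0233). Without KD replicate 2 the OE arm value was 0.23 with an adjusted p of 2.28e-05.

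AMD1 (chr6:110874770-110898879, plus strand), the source of the aminopropyl donor, had 459 and 473 CPM in NT and 588, 562 and 572 in KD. In EV it had 418 and 437 CPM and in OE 308, 304 and 310. The 3 OE libraries were the lowest of all 10 and the 3 KD libraries the highest. AMD1 rose in the KD arm by 0.30 ± 0.04 (log2, adjusted p = 2.86e-06) and fell in the OE arm by 0.48 on the log2 scale (SE 0.04, adjusted p = 4.65e-09). The arms differed by -0.78 ± 0.06 (adjusted p = 4.62e-10). With the GC content offset, the OE arm value was -0.05 (adjusted p = 0.462) and the the KD arm value 0.61 (adjusted p = 7e-12), while the difference between arms remained called at -0.65. The the KD arm call was lost without NT replicate 1 (0.28, adjusted p = 0.000487) and without NT replicate 2 (0.32, adjusted p = 0.0001, at the limit).

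The neighbours of AMD1 on chromosome 6 moved with it in the OE line. All 43 tested genes within 5 Mb were below 0 in the OE arm (median -0.69, log2), and 33 of them were below AMD1 itself. Their median was -0.05 in the KD arm, and -0.56 in the OE arm with the GC content offset. What this segment of the chromosome contributes to the fall of AMD1 was not tested.

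SRM (chr1:11054584-11060020, minus strand), which makes spermidine, had 133.9 and 132.9 CPM in NT and 199, 206 and 191 in KD. The EV libraries were at 171 and 162 CPM and the OE libraries at 212, 233 and 210. Its order of lines was that of ODC1, with NT lowest, EV next and KD and OE above both controls. SRM rose in the KD arm by 0.58 ± 0.05 (log2, adjusted p = 1.63e-09) and in the OE arm by 0.39 ± 0.05 (adjusted p = 1.21e-06). The second of these was not called with the GC content offset (0.16, adjusted p = 0.00229) or without EV replicate 2 (0.35, adjusted p = 0.000349). The arms differed by -0.19 ± 0.07 (adjusted p = 0.0433), and by -0.29 with the GC content offset (adjusted p = 0.000159), not called in either fit. Its 87 tested neighbours within 5 Mb had a median of 0.02 in the OE arm and 0.13 in the KD arm. Across the 10 libraries the log2 levels of SRM and ODC1 had a Pearson r of 0.97, which describes points that fall in 4 lines.

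SMS (chrX:21940709-21994837, plus strand), which makes spermine, changed most within the synthesis route. It was at 144 and 147 CPM in NT and at 262, 244 and 253 in KD. It was at 290 and 259 CPM in EV and at 187, 184 and 184 in OE. The knockdown line was thus above its control and the overexpression line below its own, with no overlap. SMS rose in the KD arm by 0.80 ± 0.05 (log2, 1.74-fold, adjusted p = 2.36e-12) and fell in the OE arm by 0.57 on the log2 scale (SE 0.05, 1.48-fold, adjusted p = 1.74e-09). The arms differed by -1.37 ± 0.07 (adjusted p = 1.81e-13). With the GC content offset these were 0.73, -0.61 and -1.34, all called. The control lines also differed from each other: SMS was higher in EV than in NT by 0.92 ± 0.06 (adjusted p = 4.63e-12), a gap wider than either contrast, so that the OE level lay between those of the 2 controls and the KD level close to that of EV. Its 29 tested neighbours within 5 Mb had medians of -0.31 in the OE arm, -0.03 in the KD arm and 0.01 in EV versus NT.

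SAT1 (chrX:23783173-23786210, plus strand), the acetylating enzyme of polyamine breakdown, was at 94.0 and 91.9 CPM in NT and at 69.1, 75.3 and 72.7 in KD. It was at 127 and 121 CPM in EV and at 115, 105 and 105 in OE. KD and OE were each below their control, and the KD libraries were the lowest of all. SAT1 fell in the KD arm by 0.36 on the log2 scale (SE 0.05, adjusted p = 3.62e-06), which was not called without NT replicate 1 (-0.34, adjusted p = 0.000359) or NT replicate 2 (-0.38, adjusted p = 0.000123). In the OE arm the log2 fold change was -0.20 ± 0.05 (adjusted p = 0.00274), and -0.07 with the GC content offset. The arms differed by 0.16 ± 0.08 (adjusted p = 0.0858), and by 0.25 with the GC content offset (adjusted p = 0.00302), not called in either fit. SAT1 lies on the short arm of chromosome X as SMS does, and its 24 tested neighbours had medians of -0.33 in the OE arm and 0.04 in the KD arm.

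SMOX (chr20:4120980-4187747, plus strand), the spermine oxidase, was scarce, with 81 to 190 counts per library. It was at 7.17 and 5.96 CPM in NT and at 3.10, 3.79 and 3.52 in KD. In EV it was at 5.11 and 4.75 CPM and in OE at 7.26, 7.02 and 6.54. The KD libraries were the lowest and the OE libraries overlapped those of NT. SMOX fell in the KD arm by 0.92 on the log2 scale (SE 0.13, 1.89-fold, adjusted p = 2.49e-06), which was not called without NT replicate 1 (-0.78, adjusted p = 0.000564). In the OE arm it was at 0.49 ± 0.13 (adjusted p = 0.00288), and at 0.27 with the GC content offset. The arms differed by 1.41 ± 0.19 (adjusted p = 1.29e-06), and 1.38 with the GC content offset.

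PAOX (chr10:133379261-133391694, plus strand), which oxidizes acetylated polyamines, was called in no comparison, with 157 to 232 counts per library. It was at 5.92 and 7.07 CPM in NT and at 8.89, 9.15 and 7.33 in KD. It was at 7.49 and 7.99 CPM in EV and at 8.26, 8.28 and 8.40 in OE. These values were close together, and NT was the lowest line. The log2 fold change was 0.38 ± 0.12 in the KD arm (adjusted p = 0.0097) and 0.10 ± 0.12 in the OE arm (adjusted p = 0.49, and -0.13 with the GC content offset). Its 24 tested neighbours near the end of chromosome 10 had a median of -0.46 in the OE arm, 22 of them below 0 and 22 below PAOX. An annotated gene, ENSG00000254536, overlaps it, as JSRP1 does OAZ1, SNORA80B ODC1 and MAILR AZIN1, and whether the counting used strand is not given in the sources used here.

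**Figure D2:**
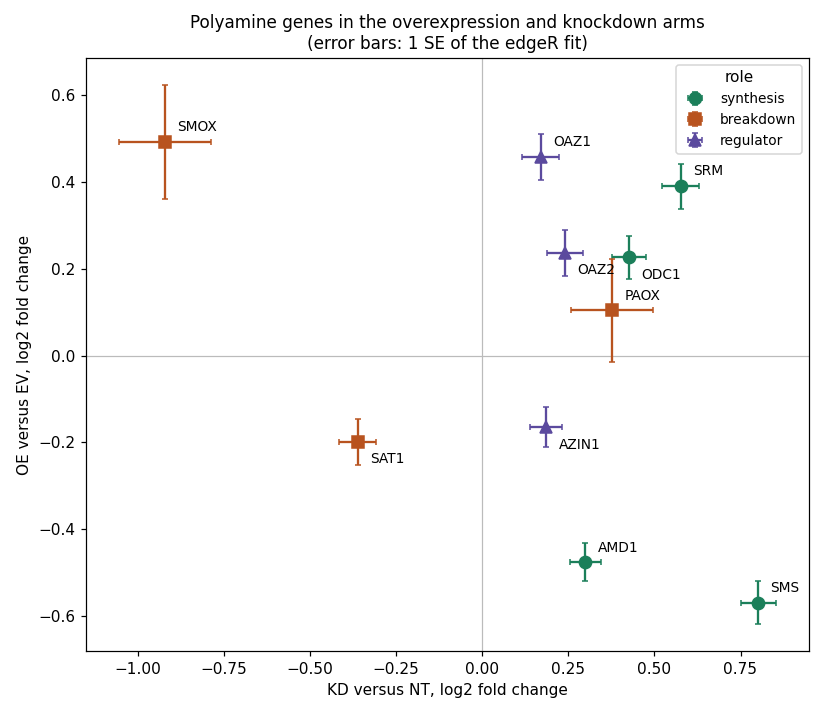
Log2 fold change of each polyamine gene in the OE arm (y axis) against the KD arm (x axis), with bars of 1 SE and symbols by role. SMS, AMD1 and AZIN1 lie at the lower right (AZIN1 at 0.21 in the OE arm with the GC content offset), SMOX at the upper left, SAT1 at the lower left, and ODC1, SRM, OAZ1, OAZ2 and PAOX at the upper right.

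OAZ1 (chr19:2269509-2273490, plus strand), the main antizyme, was the regulator that passed the limit. It was at 382 and 395 CPM in NT and at 430, 459 and 421 in KD. It was at 365 and 347 CPM in EV and at 474, 525 and 468 in OE. OE was the highest line and EV the lowest. OAZ1 rose in the OE arm by 0.46 ± 0.05 (log2, adjusted p = 1.6e-07), and by 0.23 with the GC content offset (adjusted p = 2.49e-05). In the KD arm it was at 0.17 ± 0.05 (adjusted p = 0.00809), and at -0.03 with the offset. The difference between the arms was 0.29 ± 0.08 (adjusted p = 0.00289) and was called without KD replicate 2 (0.33, adjusted p = 6.91e-05). Its 159 tested neighbours on chromosome 19, of 62.7% median GC, had a median of 0.36 in the OE arm, and of 0.11 with the offset.

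OAZ2 (chr15:64687573-64703281, minus strand), a second antizyme, was at 80.2 and 81.5 CPM in NT and 82.2 and 81.2 in EV. It was at 92.1, 102 and 92.8 CPM in KD and at 95.8, 100 and 92.9 in OE. The control lines overlapped each other, as did the KD and OE lines, and KD and OE lay above their controls. The log2 fold change was 0.24 ± 0.05 in each arm (adjusted p = 0.000455 in the KD arm and 0.000712 in the OE arm), short of the limit in both, and the OE arm value passed it without KD replicate 2 (0.24, adjusted p = 4.03e-05). With the GC content offset these were 0.13 and 0.14. The arms differed by -0.01 ± 0.08 (adjusted p = 0.967).

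AZIN1 (chromosome 8), the antizyme inhibitor, was at 182 and 181 CPM in NT and at 207, 212 and 202 in KD. It was at 203 and 202 CPM in EV and at 179, 175 and 188 in OE. KD was above its control and OE below its own. The log2 fold change was 0.19 ± 0.05 in the KD arm (adjusted p = 0.0013) and -0.16 ± 0.05 in the OE arm (adjusted p = 0.00422). The difference between the arms, -0.35 ± 0.07, was not called (adjusted p = 0.000105), and was -0.19 with the GC content offset (adjusted p = 0.0321). AZIN1 has a low GC content (38.8%), and with the GC content offset it was at 0.41 in the KD arm (adjusted p = 1.31e-07) and at 0.21 in the OE arm (adjusted p = 0.00152), the opposite direction.

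The difference between the arms was called for 3 of the 10 genes, with SMOX higher (6.94% of all tested genes) and AMD1 and SMS lower (8.98%). This test asks whether CPT1A overexpression and knockdown, each against its own control, moved a gene differently. For SMS and AMD1 the values within the arms pointed opposite ways and both were called. For SMOX only the fall in the KD arm was called. Between the control lines, SMS and SAT1 were called higher in EV than in NT and no polyamine gene was called lower, against 5.25% and 2.91% of all tested genes. By an unadjusted p under 0.05 in edgeR 3 were lower in EV, and limma-voom and DESeq2 called 0 lower. The share of all tested genes under that unadjusted limit is not given here. SAT1 was higher in EV by 0.42 ± 0.06 (adjusted p = 5.57e-06), a call that was lost without EV replicate 1 (0.37, adjusted p = 0.000817), NT replicate 1 (0.43, adjusted p = 0.000231) or NT replicate 2 (0.40, adjusted p = 0.000457). With the GC content offset OAZ1 was called lower in EV (-0.30, adjusted p = 4.79e-06) and AZIN1 higher (0.35, adjusted p = 2.02e-05). NT and EV differ in vector and selection drug as well as in being separate lines.

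Set directly against each other without their controls, OE and KD differed in 4 of the 10 genes. SMOX (1.00 ± 0.12, adjusted p = 1.5e-07) and SAT1 (0.58 ± 0.05, adjusted p = 2.85e-10) were higher in OE, where 15.5% of all tested genes were called higher. AMD1 (-0.90 ± 0.04, adjusted p = 2.85e-15) and SMS (-0.45 ± 0.05, adjusted p = 5.2e-09) were lower in OE, where 16.4% were called lower. With the GC content offset AMD1 was at -0.50 (adjusted p = 3.7e-11), still called. For SMS this direct value was smaller than the difference between arms, since the EV line started from a higher level than NT. For SAT1 it was larger than the difference between arms (0.16, not called), since SAT1 too was higher in EV than in NT (0.42). SAT1 was below the control in both arms. ODC1 and OAZ2 were at 0.03 ± 0.05 and 0.01 ± 0.05, with overlapping libraries.

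**Figure D3:**
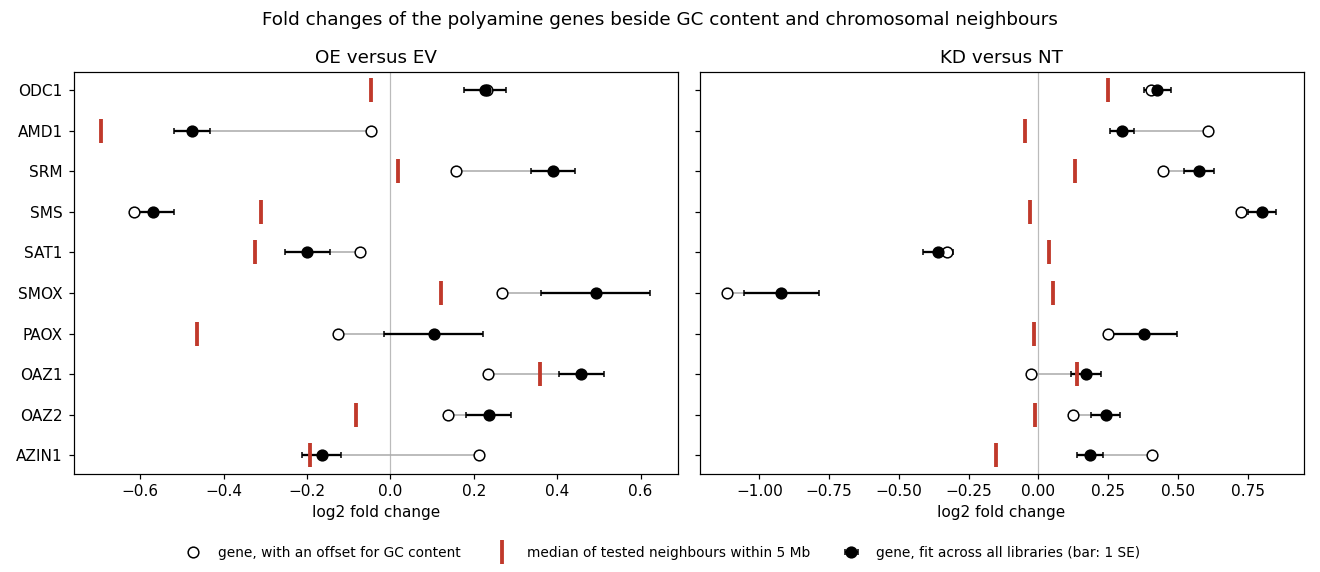
Log2 fold change of each polyamine gene in the OE arm (left) and the KD arm (right): filled points from the fit across all libraries with 1 SE, open points with an offset for GC content, and red ticks the median of the tested neighbours within 5 Mb. In the OE arm the AMD1 value moved from -0.48 to -0.05 with the offset and its neighbours had a median of -0.69, while SMS moved from -0.57 to -0.61.

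Ratios between the genes within a library do not depend on how libraries are scaled, but do move with the GC content offset where the pair differs in GC content. They are given here from raw counts with no test, since 2 against 3 libraries cannot reach 0.05 in an exact permutation test. SRM counts relative to SMS counts were 0.591 and 0.624 in EV and 1.13, 1.27 and 1.14 in OE, a 1.94-fold rise of the ratio between the spermidine and the spermine synthase. The same ratio was 0.930 and 0.907 in NT and 0.761, 0.845 and 0.755 in KD. The ratio was therefore highest in OE, the only line with more SRM than SMS counts. The ratio of SAT1 to ODC1, breakdown over entry, was 1.73-fold lower in KD than in NT and 1.34-fold lower in OE than in EV. The ratio of AMD1 to ODC1 was 1.63-fold lower in OE than in EV (1.21-fold with the GC content offset) and 1.09-fold lower in KD than in NT, where the log2 difference with the offset was 0.21, the opposite direction. The ratio of OAZ1 to AZIN1 was at least 2.49 in the OE libraries and at most 1.80 in the EV libraries (1.54-fold higher in OE), and it overlapped between KD (2.08 to 2.17) and NT (2.09 to 2.18). Its log2 difference with the GC content offset was 0.02 in the OE arm, in place of 0.62, and -0.43 in the KD arm, in place of -0.02. The SRM to SMS ratio was 1.71-fold higher in OE than in EV with the offset. The ratio of SMOX to PAOX was 2.46-fold lower in KD than in NT and rests on few counts.

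**Figure D4:**
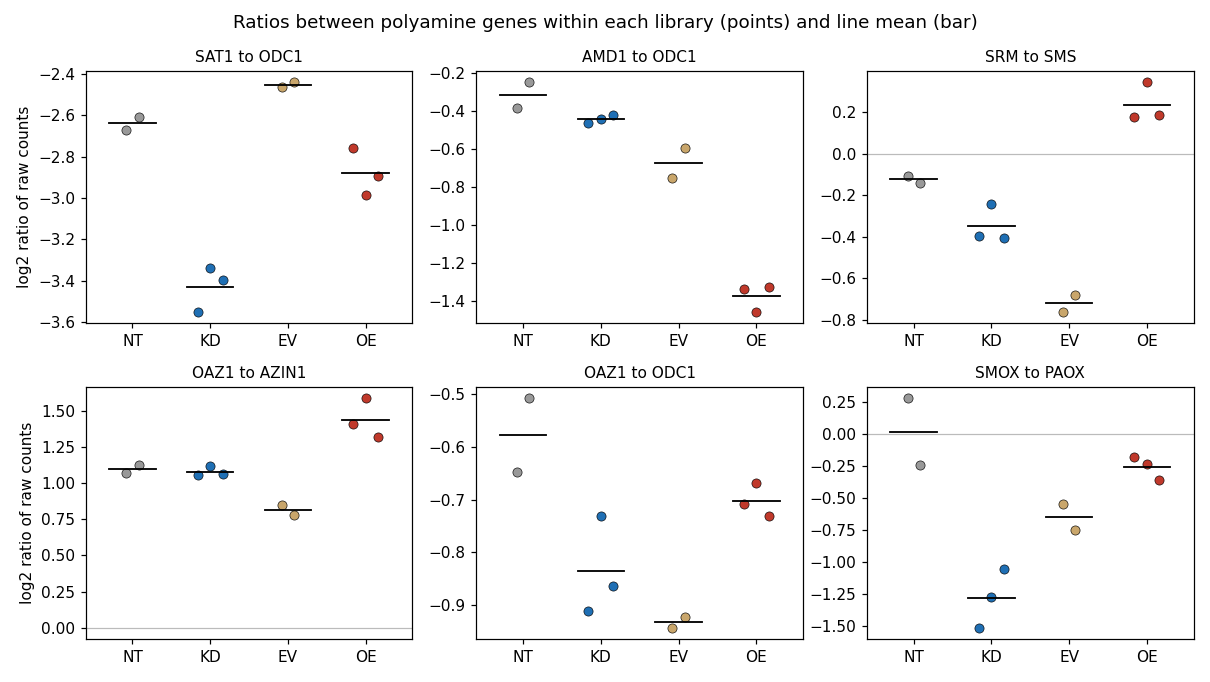
Log2 ratios of raw counts between pairs of polyamine genes (y axes, not starting at 0) in each library of the 4 lines, where points are libraries and bars are line means. SRM to SMS is above 0 in the 3 OE libraries and below 0 in the other 7, and OAZ1 to AZIN1 is highest in OE in these raw counts, a log2 difference from EV of 0.62 that was 0.02 with the GC content offset.

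Levels of different genes were compared per kilobase of canonical transcript. ODC1 and OAZ1 had the highest levels in every line, with line means of 234 (NT), 315 (KD), 275 (EV) and 321 (OE) CPM per kilobase for ODC1, and of 338, 381, 310 and 426 for OAZ1. SMOX (1.60 to 3.21 CPM per kilobase over the lines) and PAOX (3.55 to 4.62) had the lowest. SAT1 was above SMS in NT (88.6 against 85.3 CPM per kilobase) and below it in KD (69.0 against 149). On the length of all annotated exons together, OAZ1 was below ODC1 (142 against 241 CPM per kilobase in OE). On that length SAT1 was below SMS in NT as well (37.5 against 68.2 CPM per kilobase). The order within both pairs thus depends on the transcript assumed. The processed pseudogenes of AMD1, ODC1 and SRM in the table held at most 4 counts in any library.

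The genes that feed and use the pathway were read from lists chosen by name, beside a background over all tested genes of 11.6% higher and 10.3% lower in the OE arm and of 16.4% and 12.8% in the KD arm. With so few genes in a list, its counts are descriptions. Of the 10 genes of ornithine and arginine supply, 8 were tested, and 2 rose and 3 fell in each arm. ASS1, which makes argininosuccinate, rose in the OE arm (0.58 ± 0.07, adjusted p = 1.23e-07) and fell in the KD arm by 0.85 on the log2 scale (SE 0.07, adjusted p = 2.05e-10). SLC7A1, the cationic amino acid transporter that takes up arginine and ornithine, rose in the OE arm (0.28 ± 0.05, adjusted p = 5.71e-05) and fell in the KD arm by 0.33 on the log2 scale (SE 0.05, adjusted p = 4.73e-06). These moved opposite to SMS and AMD1 in both arms. OAT, which links ornithine with glutamate semialdehyde, fell in the OE arm by 0.99 on the log2 scale (SE 0.08, adjusted p = 2.1e-10) and was at -0.00 ± 0.07 in the KD arm. SLC25A15, the mitochondrial ornithine carrier, rose in the KD arm (0.78 ± 0.07, adjusted p = 8.47e-10). The median of the 8 genes was 0.02 in the OE arm and -0.08 in the KD arm.

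All 8 genes of S-adenosylmethionine supply and methylthioadenosine salvage were tested. None was called by edgeR in the OE arm, where limma-voom called 0 and DESeq2 2, and 2 rose and 2 fell in the KD arm. All 8 had an unadjusted p under 0.05 in edgeR in the OE arm, with no share of all tested genes given beside it. With the GC content offset, edgeR called ENOPH1 (0.43, adjusted p = 3.03e-08) and ADI1 (0.29, adjusted p = 2.93e-05) higher in the OE arm. MTAP, which splits the methylthioadenosine that SRM and SMS release, rose in the KD arm (0.50 ± 0.07, adjusted p = 2.15e-06), was at -0.39 ± 0.07 in the OE arm (adjusted p = 0.000111), and differed between the arms by -0.89 ± 0.10 (adjusted p = 1.84e-07). With the GC content offset the OE arm value of MTAP was -0.13 (adjusted p = 0.122). The difference between the arms was then -0.75 (adjusted p = 2e-07), still called. ENOPH1, a later salvage enzyme, rose in the KD arm (0.34 ± 0.06, adjusted p = 1.05e-05). MAT2A and MAT2B, the catalytic and regulatory subunits that make S-adenosylmethionine, each fell in the KD arm by 0.40 on the log2 scale (adjusted p = 1.4e-08 and 4.41e-06). The 2 genes that rose with the synthases thus act in salvage, and the 2 that fell in supply. The median of the 8 genes was -0.21 in the OE arm and 0.14 in the KD arm.

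Of 12 transport genes, 8 were tested, with 1 rising and 2 falling in each arm, beside the background shares of 11.6% and 10.3% (OE arm) and 16.4% and 12.8% (KD arm). SLC22A3, an organic cation transporter, was at 0.490 and 0.675 CPM in NT (13 and 17 counts) and at 6.32, 5.92 and 4.98 CPM in KD. It was at 3.74 and 4.18 CPM in EV and 4.35, 4.35 and 4.68 in OE, so that NT stood apart from the other 3 lines. It rose in the KD arm by 3.29 ± 0.21 (log2, adjusted p = 3.32e-12) from this low level. SLC3A2, the heavy chain shared by several amino acid transporters, was at 279 and 259 CPM in NT and at 139.4, 159 and 139.6 in KD. Its levels were 274 and 265 CPM in EV and 378, 412 and 363 in OE. The controls were alike, KD was below and OE above. SLC3A2 rose in the OE arm (0.51 ± 0.06, adjusted p = 1.5e-07) and fell in the KD arm by 0.88 on the log2 scale (SE 0.06, adjusted p = 5.52e-12). ATP13A3, a polyamine-transporting ATPase, fell in the OE arm by 0.52 on the log2 scale (SE 0.06, adjusted p = 1.62e-07), but was at -0.09 with the GC content offset. SLC18B1, a vesicular polyamine transporter, fell in the KD arm by 0.89 on the log2 scale (SE 0.11, adjusted p = 1.91e-07). Its control lines were further apart, with EV versus NT at -1.115 ± 0.126 (adjusted p = 2.67e-07). The NT mean of 11.58 CPM stood above the means of KD (6.25), EV (5.34) and OE (4.18).

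Spermidine is also the donor for hypusine, the modified lysine of EIF5A, and all 4 genes of this list were tested. EIF5A rose by 0.35 ± 0.05 in the OE arm (adjusted p = 4.09e-06) and by 0.46 ± 0.05 in the KD arm (adjusted p = 6.13e-08). DOHH, which hydroxylates the modified residue, rose in the OE arm (0.66 ± 0.09, adjusted p = 7.81e-07) and was at 0.40 ± 0.09 in the KD arm (adjusted p = 0.000446). EIF5A2 fell in the OE arm by 0.78 on the log2 scale (SE 0.13, adjusted p = 2.52e-05). In the fit with the GC content offset, EIF5A, DOHH and EIF5A2 were at 0.18, 0.35 and -0.35 in the OE arm and none of the 3 was called there. Of 5 further antizyme and breakdown genes, 3 were tested, and OAZ3, an antizyme known from testis, rose in both arms (0.60 ± 0.11, adjusted p = 9.26e-05, in the OE arm and 0.72 ± 0.12, adjusted p = 1.66e-05, in the KD arm).

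**Figure D5:**
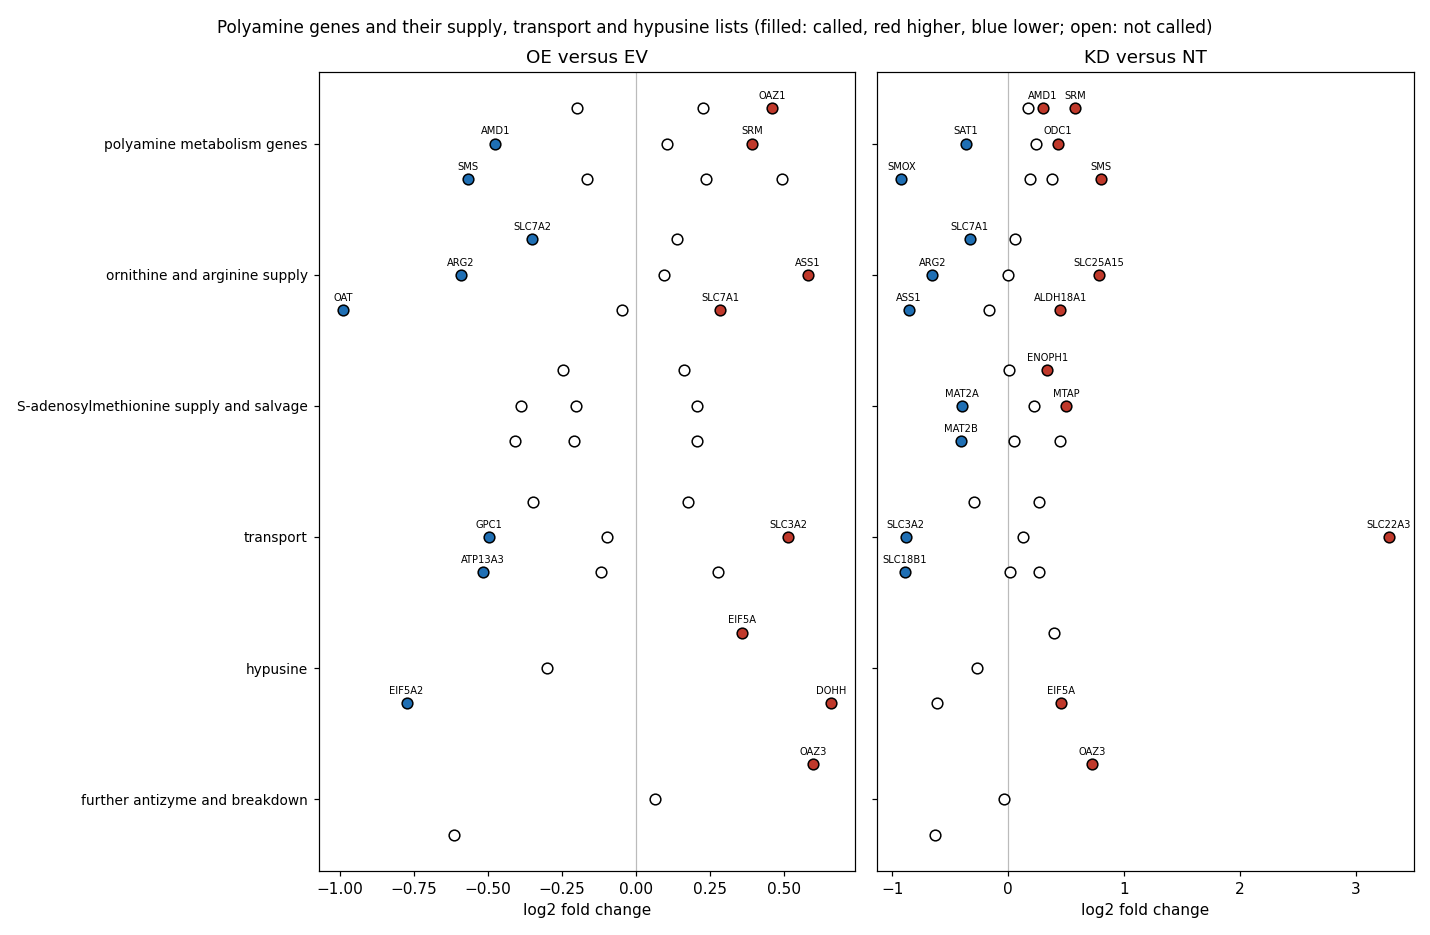
Log2 fold changes (x axes, different ranges) of the tested polyamine genes and of 5 lists of related genes in the OE arm (left) and the KD arm (right), with called genes filled and named, red higher and blue lower. ASS1, SLC7A1 and SLC3A2 are on the right in the OE arm and on the left in the KD arm, and SLC22A3 is at 3.29 in the KD arm.

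Among factors known to act on these genes, MYC, which binds E-boxes and is a known activator of ODC1 and SRM, rose in the OE arm (0.42 ± 0.05, adjusted p = 3.18e-07) and was at 0.26 ± 0.05 in the KD arm (adjusted p = 0.000102), and at 0.14 there with the GC content offset (adjusted p = 0.00582). Its part in the levels of ODC1 and SRM was not tested. ATF4, the transcription factor of the amino acid response, rose in the OE arm (0.35 ± 0.05, adjusted p = 3.47e-06) and fell in the KD arm by 1.27 on the log2 scale (SE 0.05, adjusted p = 3.12e-16). MAX and NFE2L2 were called in neither arm.

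The calls of these related genes were repeated with each of the 10 libraries left out. Those of ASS1, OAT, SLC25A15, MAT2A, SLC22A3, SLC3A2, SLC18B1, ATP13A3 and MYC within the arms held in all 10 refits. Without NT replicate 1 the KD arm calls of SLC7A1 (highest adjusted p = 0.00115), MTAP (0.000788), ENOPH1 (0.00126), MAT2B (0.000287) and OAZ3 (0.00167) were lost, those of ENOPH1, MAT2B and OAZ3 also without NT replicate 2, and those of ENOPH1 and OAZ3 also without KD replicate 1. SLC7A1 and EIF5A2 kept their OE arm calls in 5 refits and OAZ3 in 2, each losing them without EV replicate 1, OE replicate 1 or OE replicate 2 among others. ATF4 lost its OE arm call without either EV replicate (adjusted p = 0.000459 at most), and EIF5A and DOHH lost theirs without EV replicate 2 (adjusted p = 0.001 and 0.000125). With the GC content offset the OE arm values of SLC7A1 (0.17), ATF4 (0.20) and OAZ3 (0.55) and the KD arm value of MAT2B (-0.19) were not called either.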

How the data were processed

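Gene counts were analysed for 10 samples of LNCaP-C4-2 cells in 4 lines. The authors trimmed paired poly(A) mRNA reads with BBDuk and aligned and quantified them with STAR 2.6.0a on the Ensembl hg38.p12 annotation. The deposited values are whole-number counts per gene symbol, with no normalization and no pooling of samples. Strandedness and the treatment of multi-mapping reads are not given in the sources used here. All 10 count columns were matched to samples by title.

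Counts were filtered with filterByExpr, scaled with TMM and fitted in edgeR 4.0.16 (R 4.3.3) by the quasi-likelihood F test with 1 mean per line, over all 10 samples. The Benjamini-Hochberg adjustment ran over the 17230 tested genes, and the limit for a call was 0.0001, as in the study. SE are the log2 fold change over the square root of F. CPM are TMM-scaled. Depth was 23555205 to 28615770 counts per sample, the common biological coefficient of variation was 0.0446, and floors of 3 counts cover counting error only. Whether replicates came from separate cultures is not stated, so p-values measure the spread between these samples. The edgeR calling was tested on simulated counts.

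Positions, lengths and GC content came from GENCODE on GRCh38, matched by symbol for 14021 tested genes (81.4%). The GC content offset removes, in each library, the trend of log counts with GC content. Promoter windows and their build are from RefSeq. Protein sequences were not used here.

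The polyamine genes, the lists, the motifs and the ratios were chosen with earlier results of these data known. Named genes are the 10 polyamine genes, and from each related list up to 4 genes called in an arm with the smallest p for the difference between arms, and from the factors known to act on them those called in an arm. Some items are not reported here. Alternatives were the GC content offset, a limit of 0.05, a replicate block, each arm fitted alone, limma-voom (limma 3.58.1), the DESeq2 1.42.0 Wald test, its size factors, scaling by library size, a minimum of 10 counts per sample or no filter, and leaving out each sample. The length over all annotated exons, the ratios and neighbours with the offset and a narrower window were added after the data were seen.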

Additional observations from a re-analysis of the deposited data

How the results depend on the processing

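With the limit at 0.05, 9 of the 10 genes were called in OE versus EV, 10 in KD versus NT, 7 in the difference between arms, 7 between the controls (EV versus NT) and 7 for OE against KD. The share of all tested genes called at 0.05 is not given here, so these counts do not set the polyamine genes apart. For EV versus NT, 4 were called with no filter, with the GC content offset and with the control lines fitted alone, against 2. Leaving out 1 library at a time gave 3 to 6 calls in OE versus EV, 3 to 6 in KD versus NT (3 without NT replicate 1, 4 without NT replicate 2), 3 to 5 in the difference (5 without KD replicate 2), 1 to 3 in EV versus NT (1 without NT replicate 1, NT replicate 2 or EV replicate 1) and 4 for OE against KD. With the replicate block there were 4, 7, 4, 3 and 4 calls. Same-numbered samples did not deviate together on average over all tested genes (mean r -0.003 over 13 pairs, against 0.002 over 24 others). Such a mean cannot tell whether some genes share a deviation by replicate number. KD replicate 2 and OE replicate 2 each stood apart from the others of their line, and a shared batch was not tested. Library size alone gave 6, 7, 4, 3 and 5 calls, and moved the median log2 fold change of all genes to -0.12 in OE versus EV, -0.15 in the difference and -0.15 in OE versus KD.

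The GC content offset reversed PAOX (-0.13) and AZIN1 (0.21) in OE versus EV, OAZ1 (-0.026) in KD versus NT, OAZ2 (0.0122) in the difference, AMD1 (0.15) and OAZ2 (-0.0629) in EV versus NT, and SRM (-0.14), OAZ1 (-0.0414), OAZ2 (-0.0507) and AZIN1 (0.16) for OE against KD. It ended the OE versus EV calls of AMD1 (-0.05) and SRM (0.16). Library size alone reversed ODC1 (-0.10) and OAZ2 (-0.12) in OE versus KD. Leaving out 1 library reversed only values near 0. OAZ2 ranged from -0.0317 to 0.0402 in the difference, from -0.00343 to 0.0279 in EV versus NT and from -0.0163 to 0.0558 for OE against KD, where ODC1 ranged from -0.00506 to 0.0625 and PAOX from -0.115 to 0.0411. The log2 ratio of OAZ1 to AZIN1 in KD versus NT ranged from -0.044 to 0.011, and the offset, added for ratios after the data were seen, reversed that of AMD1 to ODC1 there (0.206). Of the gene values under alternatives that keep all samples, 401 kept direction and side of the limit, 25 gained a call, 2 lost one and 12 reversed. The causes were not tested.

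Each line had 2 or 3 samples, and the fit pooled the spread within lines over all 10 samples. Log2 differences near 0.2 were short of the limit. In the OE arm SAT1 at -0.20 had an adjusted p of 0.00274 and ODC1 at 0.23 one of 0.000543. AMD1 at 0.30 in the KD arm was called (adjusted p = 2.86e-06). SMOX and PAOX, with 81 to 232 counts, had SE of 0.10 to 0.19.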

Other observations

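The genes whose log2 levels were most like those of ODC1 over the 10 libraries, out of 12610 compared, were KCTD2, MFN2 and MAD2L2, each with a Pearson r of 0.985. Those most like SAT1 were ARG2 (0.985), S100P (0.984) and CAPN5 (0.98). The libraries fall in 4 lines, so these values describe the order of 4 lines and their spread. ARG2, which hydrolyses arginine to ornithine, was in the list of ornithine supply and was below the control in both arms (-0.59 ± 0.07, adjusted p = 1.02e-07, in the OE arm and -0.65 ± 0.07, adjusted p = 2.44e-08, in the KD arm, by edgeR's quasi-likelihood test). By the same test its control lines were further apart, with EV versus NT at 0.976 ± 0.075 (adjusted p = 4.44e-10). The OE mean of 147.3 CPM thus lay above the NT mean of 112.9 CPM, although below that of EV (221.9). Among the polyamine genes themselves, OAZ1 and OAZ2 had an r of 0.90 and SMOX and AZIN1 of -0.89.

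ODC1-DT, the transcript that starts on the opposite strand beside the ODC1 start and was singled out after its values were seen, was at 12.98 and 11.16 CPM in NT, 16.82, 16.02 and 16.09 in KD, 13.92 and 12.70 in EV and 15.51, 16.93 and 15.79 in OE. KD and OE were above their controls, as for ODC1. Its log2 fold change was 0.43 ± 0.09 in the KD arm (adjusted p = 0.000231) and 0.27 ± 0.09 in the OE arm (adjusted p = 0.0147), beside 0.43 and 0.23 for ODC1, and neither passed the limit of 0.0001.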
